A study of Mus musculus with 12 samples.

Results

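The 8 genes described here mark B cells and the antibody-secreting plasma cells that arise from them: Cd79a, Cd79b, Ms4a1, Ighm, Igha, Igkc, Jchain and Mzb1. They were chosen by symbol, with earlier results of these data known, and are 8 of the 46517 genes listed for each library. RNA was sequenced from intestinal epithelial cells detached with EDTA from the colon of C57BL/6 mice aged 7 to 9 weeks, in 4 groups of 3 libraries. The groups were wild-type (WT) mice left untreated, WT mice given DSS for 48 h, and Nfkb2-/- mice (called KO here) left untreated or given DSS for the same time. DSS, dextran sulfate sodium, is a sulfated polysaccharide used to provoke colitis. The labels name neither a cell type restriction of the deletion nor the allele. Per the labels, about 90% of the isolated cells were CD45.2-negative and EpCAM-positive. No sort to remove leukocytes is mentioned.

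Mature B cells carry an antibody on their surface as part of the B cell receptor, which signals through the paired chains encoded by Cd79a and Cd79b. When activated, a B cell can exchange the first heavy chain it makes, the mu chain of IgM, for another class, and then become a plasma cell that secretes the antibody. In the gut wall most plasma cells are known to make IgA, which is joined into dimers by the J chain and carried across the epithelium. Nfkb2 encodes a subunit of the non-canonical NF-kB pathway, on which lymphoid follicles depend, so the genotypes were compared for transcripts of B-lineage cells.

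The results turned on the constant-region genes, which name the class of the antibody. Ighm, the mu heavy chain of IgM, lies on the minus strand of chr12:113418558-113422730 (GRCm38), and Igha, the alpha heavy chain of IgA, lies further along the same cluster at chr12:113254830-113260236. Igkc, the kappa light chain constant gene, is a single exon on the plus strand at chr6:70726435-70726966. Shown first are the opening 60 bases of the first constant exon of each, 5′ to 3′ on the coding strand, since these are the bases that follow the variable region in a spliced antibody transcript. They lie at chr12:113422671-113422730 for Ighm, chr12:113260177-113260236 for Igha and chr6:70726435-70726494 for Igkc.
Ighm: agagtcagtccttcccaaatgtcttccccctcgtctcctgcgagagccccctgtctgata
Igha: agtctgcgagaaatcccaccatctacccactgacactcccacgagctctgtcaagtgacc
Igkc: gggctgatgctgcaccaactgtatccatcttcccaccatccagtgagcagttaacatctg
Aligned base by base without gaps, Ighm and Igha shared 20 of these 60 bases (33.3%).

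The last 60 coding bases of the secreted form, before its stop codon, are shown because both heavy chains end in a tailpiece that joins with the J chain. The codon of the cysteine that makes this bond in the heavy chains, and of the one that bonds kappa to a heavy chain, is in capitals. These bases lie at chr12:113420870-113420929 for Ighm, chr12:113258771-113258830 for Igha and chr6:70726695-70726754 for Igkc.
Ighm: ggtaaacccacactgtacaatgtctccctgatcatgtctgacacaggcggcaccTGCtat
Igha: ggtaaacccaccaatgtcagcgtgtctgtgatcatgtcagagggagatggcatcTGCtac
Igkc: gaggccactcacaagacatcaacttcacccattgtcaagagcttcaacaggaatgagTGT
Here 41 of 60 bases were the same in Ighm and Igha (68.3%). No stretch of 50 bases in the annotated transcripts of Ighm, Igha or Igkc recurred in another annotated gene, so reads of these genes are separable at that length.

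Library totals ranged from 5595909 to 8117740 counts. Values are given as reads counted per gene or as CPM, counts scaled to the library total with TMM factors, and a floor of 3 counts corresponded to 0.356 to 0.529 CPM. Nfkb2 itself, measured over the whole gene, had 211 to 346 counts in WT libraries and 87 to 143 in KO libraries. It was lower in KO by 1.32 on the log2 scale over both treatments (edgeR adjusted p = 4.79e-05), with no overlap between genotypes. The library numbers in the labels were 8519 to 8524 in WT and 8525 to 8530 in KO, so effects of genotype and of library order cannot be told apart.

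Antibody transcripts differed between the genotypes in opposite directions. Igha, Igkc and Jchain were lower in the KO epithelial cell libraries and Ighm was higher, and all 4 passed the test when the genotype difference was averaged over both treatments. The other 4 members had too few reads to pass the filter for this test. In an RNA pool from many cells, fewer cells of a type and less RNA per cell cannot be told apart.

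**Figure D1:**
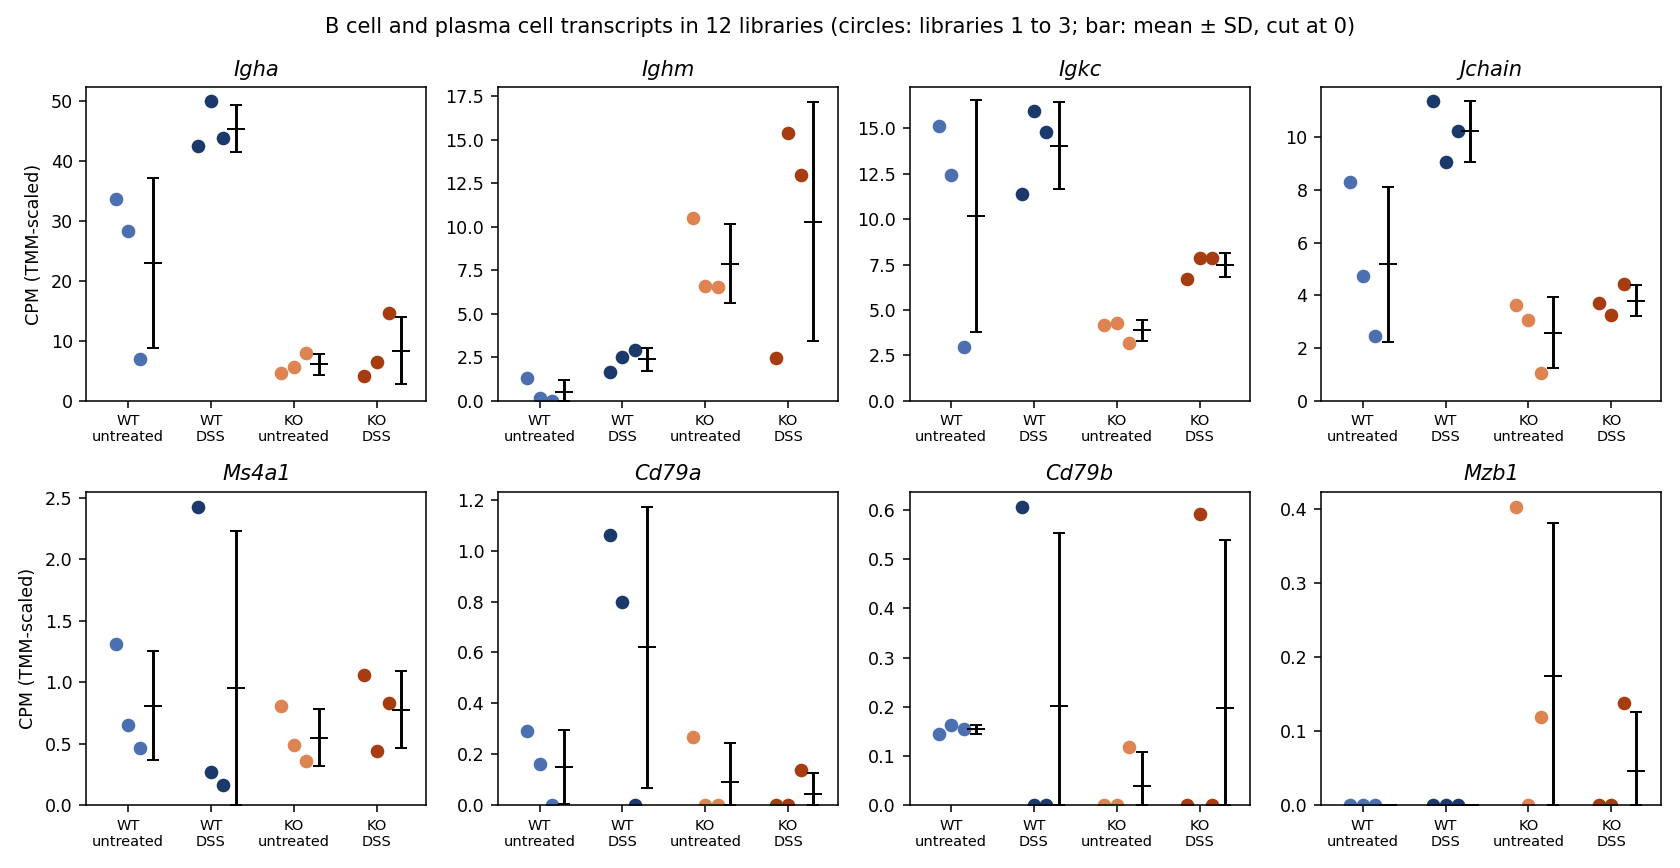
CPM of the 8 members (vertical axes, each gene on its own scale) in the 12 libraries, grouped by genotype and treatment, with circles for libraries 1 to 3 and a bar for the mean ± SD, cut at 0. Igha in WT given DSS lay between 42.4 and 49.9 CPM, above all 6 KO libraries, whereas Ighm in untreated KO lay between 6.52 and 10.5 CPM, above all 6 WT libraries.

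Igha was the most counted member in WT libraries. It was at 33.6, 28.3 and 6.94 CPM in untreated WT, 42.4, 49.9 and 43.8 CPM in WT given DSS, 4.57, 5.60 and 7.94 CPM in untreated KO, and 4.06, 6.36 and 14.7 CPM in KO given DSS. Untreated WT library 3 was low and fell among the untreated KO libraries, so these groups overlapped, whereas with DSS every WT library was above every KO library. With DSS the level was 45.4 ± 3.98 CPM in WT and 8.36 ± 5.57 CPM in KO (SD, n = 3 each), and Igha was lower in KO by a log2 difference of -2.42 ± 0.50 (SE, edgeR adjusted p = 0.0146). Igha was the only 1 of the 8 members that passed with DSS, in a comparison in which 3.11% of 12522 tested genes passed. That call was lost when WT library 1 or 2, or KO library 1 or 2, of the DSS groups was left out (edgeR adjusted p from 0.05001 to 0.0908).

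In untreated mice, Igha had a log2 difference of -1.92 ± 0.50, which just missed the threshold (edgeR adjusted p = 0.05004). Without untreated WT library 3 the difference was -2.35 and passed (edgeR adjusted p = 0.00292). Averaged over both treatments it was lower in KO by 2.17 on the log2 scale, or 4.50-fold (edgeR adjusted p = 0.00210), and this call held in all 19 alternative analyses of that comparison, which gave differences from -2.51 to -1.98.

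Ighm showed the reverse. It had 9, 1 and 0 counts in untreated WT, 11, 19 and 18 in WT given DSS, 78, 54 and 55 in untreated KO, and 14, 104 and 94 in KO given DSS. In CPM these were 1.31, 0.164 and 0, then 1.67, 2.53 and 2.93, then 10.5, 6.58 and 6.52, and last 2.47, 15.4 and 13.0. All untreated KO libraries were above all untreated WT libraries, whereas KO library 1 given DSS was low and fell inside the WT range.

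In untreated mice Ighm was at 0.491 ± 0.714 CPM in WT and 7.86 ± 2.27 CPM in KO (SD, n = 3 each), a log2 difference of 3.91 with a 95% interval from 2.16 to 5.65 (edgeR adjusted p = 0.0154). Of the 3 untreated WT libraries, 2 were below the floor of 3 counts. Ighm was the 1 member of 8 that passed in this comparison, in which 3.48% of tested genes passed. The call was lost without untreated WT library 2 (edgeR adjusted p = 0.0741) and without untreated KO library 1 (edgeR adjusted p = 0.0560). It was also lost in a fit on these 2 groups only (edgeR adjusted p = 0.0537). Leaving out 1 library at a time gave differences from 3.34 to 6.32, the highest of them above the 95% interval.

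With DSS the Ighm difference was 2.12 ± 0.68 and did not pass (edgeR adjusted p = 0.123). Without KO library 1 of the DSS group it was 2.57 and passed (edgeR adjusted p = 0.0422). Averaged over both treatments Ighm was higher in KO by 3.01 ± 0.53 on the log2 scale, or 8.06-fold (edgeR adjusted p = 0.00382), and this call held in all 19 alternatives, with differences from 2.73 to 4.22.

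Igkc encodes the constant region of the kappa light chain, which is shared by antibodies of every heavy-chain class. It was at 15.1, 12.4 and 2.93 CPM in untreated WT, 11.4, 16.0 and 14.8 CPM in WT given DSS, 4.17, 4.26 and 3.20 CPM in untreated KO, and 6.70, 7.84 and 7.88 CPM in KO given DSS. As with Igha, untreated WT library 3 was the lowest of its group and lay below all untreated KO libraries, and with DSS the genotypes did not overlap. The log2 differences of -1.39 ± 0.44 in untreated mice and -0.91 ± 0.42 with DSS did not pass (edgeR adjusted p = 0.109 and 0.341). Their average, -1.15 ± 0.31, passed (edgeR adjusted p = 0.0390).

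Jchain encodes the small protein that links IgA into dimers and IgM into pentamers. It was at 8.29, 4.75 and 2.47 CPM in untreated WT, 11.4, 9.05 and 10.2 CPM in WT given DSS, 3.63, 3.05 and 1.07 CPM in untreated KO, and 3.70, 3.26 and 4.42 CPM in KO given DSS. The untreated genotypes overlapped and those given DSS did not. Its log2 differences of -1.01 ± 0.48 untreated and -1.42 ± 0.46 with DSS did not pass (edgeR adjusted p = 0.331 and 0.132), and their average of -1.22 ± 0.33 did (edgeR adjusted p = 0.0443).

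Averaged over both treatments, 4 of the 8 members thus passed, 1 higher and 3 lower in KO. Of all tested genes 5.95% passed, 3.07% higher and 2.88% lower. The Igkc and Jchain calls were near the threshold. Igkc was lost in 12 and Jchain in 11 of 19 alternatives, most of which left out 1 library, and adjusted p reached 0.0965 and 0.107. With replicate numbers as blocks, which the check of the samples did not support for genotype comparisons, they were also lost (edgeR adjusted p = 0.0654 and 0.0547). With DSS, 3 of the 4 tested members were lower in KO without overlap between genotypes, as were 10.6% of all tested genes, and in untreated mice Ighm was higher without overlap, as were 9.81%.

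**Figure D2:**
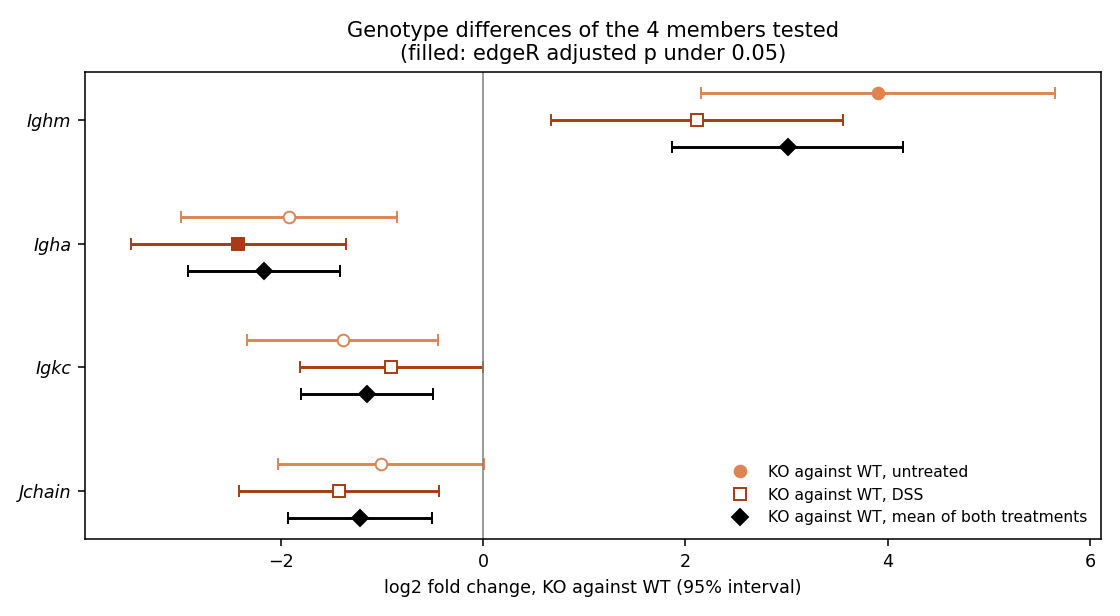
Log2 fold change of KO against WT (horizontal axis) for the 4 members with enough reads to test, with 95% intervals, untreated, with DSS and averaged over both, and filled symbols where the edgeR adjusted p was under 0.05. Ighm lay to the right of 0 in all 3 comparisons and Igha, Igkc and Jchain lay to the left.

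Levels of different genes were set beside each other per kilobase of annotated exon, where Igkc was the highest member in every group. The length is that of all exons of the annotated transcripts together, 2668 bases for Igha and 532 for Igkc. Which transcripts were present was not determined, so the order of the genes rests on these lengths. In untreated WT the mean levels were 19.1 ± 12.1 CPM per kb for Igkc, 8.61 ± 5.29 for Igha, 2.05 ± 1.17 for Jchain and 0.260 ± 0.378 for Ighm (SD, n = 3). In untreated KO the order was Igkc at 7.29 ± 1.10, Ighm at 4.17 ± 1.20, Igha at 2.26 ± 0.648 and Jchain at 1.03 ± 0.533 CPM per kb. Ighm was thus the lowest of these 4 genes in WT and the next to highest in KO. Neighbours in this order lay within their SDs of each other for Igkc and Igha in untreated WT. The same held in KO given DSS for Ighm at 5.45 ± 3.64 and Igha at 3.13 ± 2.09 CPM per kb, and for Igha and Jchain, the latter at 1.51 ± 0.234.

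Within the heavy-chain constant genes, the shares of reads on Igha and on Ighm did not overlap between WT and KO libraries. Of all reads on Ighm, Ighd, Ighg1, Ighg2b, Ighg2c, Ighg3 and Igha, Igha took 71.7%, 77.9% and 68.2% in untreated WT and 72.7%, 72.0% and 69.2% in WT given DSS. In KO it took 22.4%, 28.6% and 39.2% untreated and 20.5%, 17.0% and 32.7% with DSS. The WT shares were close to each other, also in library 3 of untreated WT, which had few antibody reads, and all KO shares lay below them. The nearest pair was untreated WT library 3, at 45 of 66 reads (95% Wilson interval 56.2% to 78.2%), and untreated KO library 3, at 67 of 171 reads (32.2% to 46.7%). These intervals cover counting error only, since reads copied by PCR are not independent molecules.

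Ighm took 2.80%, 0.450% and 0% of heavy-chain reads in untreated WT and 2.86%, 3.65% and 4.63% in WT given DSS. The value of 0 rested on 66 reads and, at the floor of 3 counts, allows a share of up to 4.55% (95% Wilson upper limit 5.50%). In KO, Ighm took 51.3%, 33.5% and 32.2% untreated and 12.5%, 41.1% and 29.0% with DSS. The lowest KO share, 14 of 112 reads in library 1 given DSS, had a 95% Wilson interval of 7.59% to 19.9% and was still above every WT share.

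The remaining heavy-chain reads were mostly of IgG genes. Ighg2b, which encodes the heavy chain of IgG2b, held 12.5 ± 6.68% of heavy-chain reads in WT and 26.1 ± 7.93% in KO (SD, n = 6 each), while its CPM did not pass between genotypes (log2 difference 0.25 ± 0.34 over both treatments, edgeR adjusted p = 0.764). Of the 10 other immunoglobulin constant genes, 3 could be tested and none passed in a genotype comparison. Their log2 differences over both treatments were -0.38 for Ighg1, 0.25 for Ighg2b and -1.17 for Ighg2c, beside a median of 0.00 over all tested genes. That of Ighg1 averages -2.71 in untreated mice and 1.94 with DSS, neither of which passed (edgeR adjusted p = 0.246 and 0.441). Ighd, the IgD heavy chain of unswitched B cells, had 3 reads in all WT libraries together and 37 in KO, 20 of them in KO library 3 given DSS and 11 in untreated KO library 2. The lambda light chain gene Iglc1 had 43 reads in WT and 5 in KO, and Iglc2 and Iglc3 had at most 4 in either genotype.

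**Figure D3:**
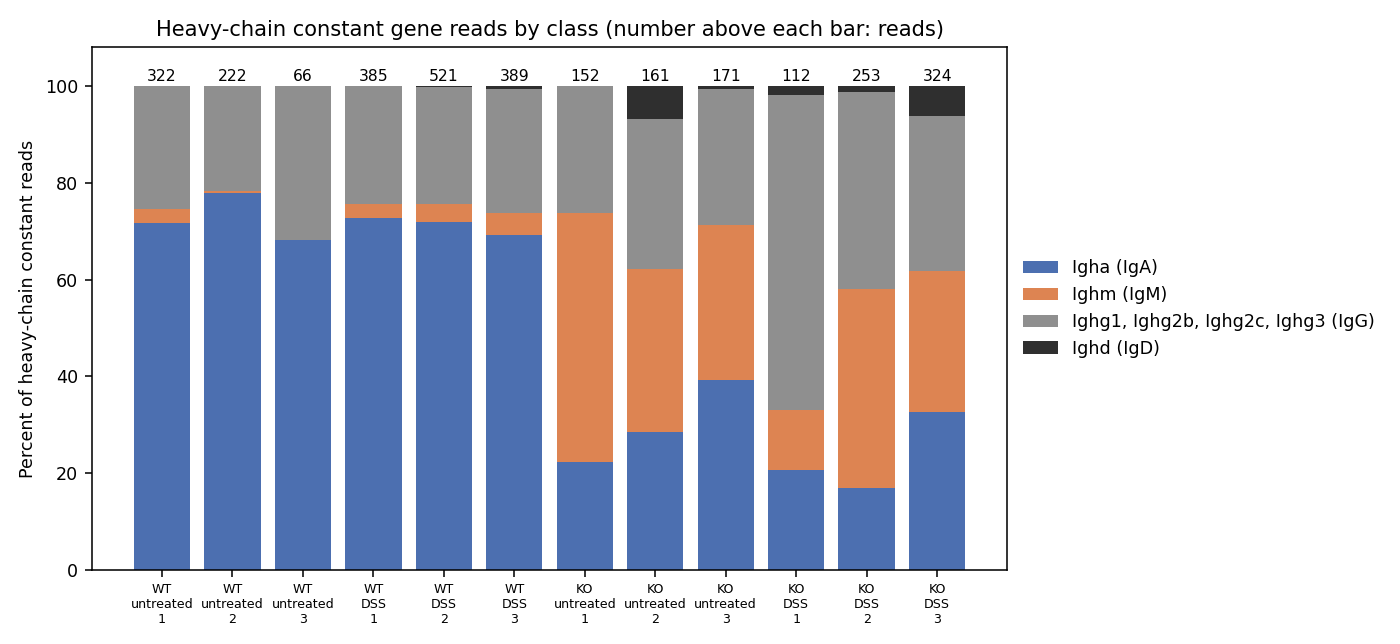
Percent of heavy-chain constant gene reads (vertical axis) on Igha, Ighm, the 4 IgG genes and Ighd in each of the 12 libraries, with the number of reads above each bar. Igha holds 68.2% to 77.9% in WT libraries and 17.0% to 39.2% in KO libraries.

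Variable segments, which encode the part of the antibody that binds antigen, were counted beside the constant genes. Of 348 segments listed, 133 had at least 1 read and none had enough to be tested singly. Their reads summed to 21.5, 18.0 and 6.48 CPM in untreated WT, 29.6, 30.2 and 32.2 CPM in WT given DSS, 5.64, 5.48 and 6.40 CPM in untreated KO, and 7.23, 12.6 and 11.5 CPM in KO given DSS. Every KO library was below every WT library of the same treatment, untreated WT library 3 by a narrow margin. Reads fell on 119 different segments in WT and on 79 in KO, from totals of 920 and 350 reads. The number of segments seen rises with the number of reads, and the 2 numbers were not compared at equal depth. The segment with the most reads held 6.17% to 27.1% of a library's segment reads, and the highest share was that of Ighv1-64 in KO library 2 given DSS, with 23 of 85 reads.

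The genes of the B cell surface were near the floor in both genotypes and did not pass the filter for the test. Ms4a1, which encodes the surface protein CD20, had 9, 4 and 3 counts in untreated WT, 16, 2 and 1 in WT given DSS, 6, 4 and 3 in untreated KO, and 6, 3 and 6 in KO given DSS. Its highest value, 2.42 CPM in WT library 1 given DSS, stood alone, and the genotypes overlapped in both treatments. Cd79a had 2, 1 and 0, then 7, 6 and 0 counts in WT and 2, 0 and 0, then 0, 0 and 1 in KO, untreated before DSS. Cd79b had 1 read in each untreated WT library, 4, 0 and 0 in WT given DSS, 0, 0 and 1 in untreated KO and 0, 4 and 0 in KO given DSS. Tested without the filter, none of the 3 passed between genotypes, and the smallest unadjusted edgeR p was 0.0904, for Cd79a with DSS (log2 difference -3.26, adjusted p = 0.582). With so few reads a fall from the WT level could hardly be detected. In Cd79a, 8.31% of the 50-base words also occurred in other annotated genes.

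Mzb1 encodes an endoplasmic reticulum protein that assists antibody assembly in marginal zone B cells and plasma cells. It had no read in any of the 6 WT libraries, and in KO it had 3, 0 and 1 reads untreated and 0, 0 and 1 with DSS. All libraries were thus at or below the floor. Its exons overlap those of another gene on the same strand, and 53.5% of its 50-base words are shared with other genes, so its counts are uncertain.

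None of the 4 tested members passed for DSS against untreated within either genotype. In WT, where 6.30% of tested genes passed, the log2 change from untreated to DSS was 2.19 for Ighm, 0.98 for Igha, 0.98 for Jchain and 0.47 for Igkc, and the smallest edgeR adjusted p was 0.187. Of these, 2 had an unadjusted edgeR p under 0.05 and DESeq2 called 0. Ighm, Igha and Jchain were higher in every DSS-treated than in every untreated WT library, as were 10.7% of all tested genes. Without the filter on low counts Ighm and Igha passed (edgeR adjusted p = 0.00779 and 0.00465), and Ighm also passed when untreated WT library 1 was left out (edgeR adjusted p = 0.0411). In KO, where 3.92% of tested genes passed, the changes were 0.40, 0.48, 0.56 and 0.95 in the same order, with a smallest edgeR adjusted p of 0.316, no unadjusted p under 0.05 and 0 calls by DESeq2. The Igkc levels did not overlap between untreated and DSS-treated KO libraries, and those of the other 3 tested members did. The matching share of all tested genes is not given here, so the separation of Igkc, which did not pass, is not read as a result.

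The change with DSS was not found to differ between genotypes for any member. The interaction, the log2 change in KO minus that in WT, was -1.79 for Ighm with a 95% interval from -4.07 to 0.49, and -0.50 for Igha with an interval from -1.98 to 0.98. For Igkc it was 0.48 and for Jchain -0.41. None had an unadjusted edgeR p under 0.05, DESeq2 called 0, and 1.70% of all tested genes passed. These intervals are wide, and a difference of several-fold would lie inside that of Ighm. Among the other constant genes Ighg2b rose with DSS in WT, by 2.13 ± 0.51 on the log2 scale (edgeR adjusted p = 0.0196). In KO its change of 0.95 did not pass (edgeR adjusted p = 0.361), and the interaction of -1.18 did not pass either (edgeR adjusted p = 0.619).

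Other genes of the B lineage gave few calls. Of 32 further B cell genes, 9 were tested, and averaged over both treatments 1 passed as higher and 1 as lower in KO, with a median difference of -0.01. Cd72, an inhibitory coreceptor of B cells, rose by 2.20 ± 0.52 on the log2 scale in KO (edgeR adjusted p = 0.0215). The rise was from 0.360 to 1.90 mean CPM untreated and from 0.950 to 4.09 mean CPM with DSS. The untreated WT mean lay within the floor of 3 counts, 0.356 to 0.529 CPM, so the size of the rise is uncertain. Ralgps2, also expressed outside B cells, fell by 0.41 on the log2 scale (edgeR adjusted p = 0.0304). The Cd72 call was lost in 3 and the Ralgps2 call in 9 of 19 alternatives, with edgeR adjusted p up to 0.0748 and 0.0829. Pax5, the transcription factor of B cell identity, had 5 reads in 1 WT library and none in KO. Of 8 germinal centre genes 4 were tested, and none passed in a genotype comparison by edgeR.

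Of 15 further plasma cell genes, 10 were tested and none passed between genotypes by edgeR, with a median difference of 0.04 over both treatments. Several are also expressed by gut epithelium. Xbp1, a transcription factor of secretory cells, was at 304 to 415 mean CPM in the 4 groups, and Sdc1, which encodes the plasma cell surface protein CD138, was at 260 to 423 mean CPM. In WT given DSS Xbp1 rose by 0.45 on the log2 scale and Sdc1 fell by 0.65 on that scale (edgeR adjusted p = 0.00473 and 0.00112). Prdm1, the plasma cell regulator Blimp-1, differed by -0.61 ± 0.39 between genotypes and did not pass (edgeR adjusted p = 0.446). Irf4, a further plasma cell regulator that T and myeloid cells also use, had 1 read in all WT libraries and 44 in KO, in 5 of 6 libraries. Tnfrsf17, the plasma cell receptor BCMA, had none in any library.

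Signals that organise lymphoid follicles were read from a list of 13 genes, 5 of them tested. Ltb, a lymphotoxin subunit made by lymphocytes, rose in KO by 3.75 ± 0.66 on the log2 scale untreated (edgeR adjusted p = 0.00500) and by 2.21 ± 0.54 with DSS (edgeR adjusted p = 0.0406), and was the only tested gene of the list to pass. It had 1 to 9 reads in WT libraries and 16 to 43 in KO libraries. The follicle chemokine Cxcl13 had 8 reads in all WT libraries and 24 in KO. Among 9 genes of the epithelium over follicles and its M cells, 6 were tested and 1 passed. This was Ccl20, a chemokine that attracts B cells and dendritic cells, at 2.07 ± 0.640 CPM in untreated WT, 9.97 ± 1.51 in WT given DSS, 23.3 ± 4.52 in untreated KO and 19.0 ± 1.17 in KO given DSS (SD, n = 3 each). It was higher in KO by 3.49 on the log2 scale untreated and by 0.93 with DSS (edgeR adjusted p = 5.09e-06 and 0.0498). The call for Ltb with DSS was lost in 11 and that for Ccl20 with DSS in 13 of 20 alternatives.

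Pigr, the epithelial receptor that carries dimeric IgA into the lumen, differed little between genotypes. It was at 7356 ± 858 CPM in untreated WT, 7144 ± 76.3 in WT given DSS, 7385 ± 248 in untreated KO and 7880.4 ± 136 in KO given DSS (SD, n = 3 each). Its log2 difference over both treatments was 0.07, with a 95% interval from -0.04 to 0.19 (edgeR adjusted p = 0.532). None of the 4 tested genes for IgA transport and plasma cell homing passed between genotypes by edgeR.

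Pan-leukocyte genes, and those of T and myeloid cells, were mostly higher in KO, in the direction of Ighm and against that of Igha, Igkc and Jchain. The pan-leukocyte genes cannot be assigned to 1 cell type here. Of 8 pan-leukocyte genes 7 were tested, and all 7 rose over both treatments, with a median of 1.69 on the log2 scale. Ptprc, which encodes CD45, rose by 1.47 ± 0.20 (edgeR adjusted p = 0.000483) and Coro1a, an actin-binding protein of leukocytes, by 2.24 ± 0.25 (edgeR adjusted p = 8.64e-05). The summed level of the list ranged from 49.3 to 65.9 CPM in untreated WT, 70.1 to 94.1 in WT given DSS, 131 to 158 in untreated KO and 189 to 237 in KO given DSS. No KO library overlapped a WT library.

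T cell genes followed the same order. All 11 tested genes were higher over both treatments, with a median of 1.99, and 8 passed. Cd3e, a chain of the T cell receptor complex, rose by 2.01 ± 0.35 (edgeR adjusted p = 0.00334), and the summed level was 14.2 to 30.9 CPM in untreated WT, 31.6 to 44.4 in WT given DSS, 61.0 to 72.5 in untreated KO and 64.0 to 111 in KO given DSS. Of 10 tested myeloid genes 9 had a log2 difference above 0 and 4 passed, all of them higher. Among these was Lyz2, lysozyme of macrophages and neutrophils, higher by 1.95 ± 0.27 (edgeR adjusted p = 0.000569). The myeloid sums were 8.29 to 11.0, 27.0 to 39.4, 21.0 to 23.5 and 69.3 to 89.9 CPM in the same order of groups. The part of these cells in the Ighm difference was not tested.

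Epithelial markers were read from a list of 10 genes, all tested. Epcam, the surface protein by which purity was judged, was at 2885 ± 450 CPM in untreated WT and 2701 ± 194 CPM in untreated KO, and its difference over both treatments of -0.12 ± 0.08 did not pass (edgeR adjusted p = 0.491). Averaged over treatments 9 of the 10 had a log2 difference below 0 in KO and 2 passed. These were Vil1, a microvillus protein, at -0.48, and Krt20, a keratin of differentiated colonocytes, at -0.37 (edgeR adjusted p = 0.00703 and 0.0157). The summed level of the list was 24948 to 33421 CPM in untreated WT, 25659 to 26943 in WT given DSS, 25566 to 26974 in untreated KO and 22238 to 23704 in KO given DSS, so that with DSS the KO libraries lay below the WT libraries. Krt20 also fell with DSS, by 1.33 on the log2 scale in WT and by 1.34 in KO (edgeR adjusted p = 5.16e-06 and 2.09e-05). The part of these differences in those of the members was not tested.

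**Figure D4:**
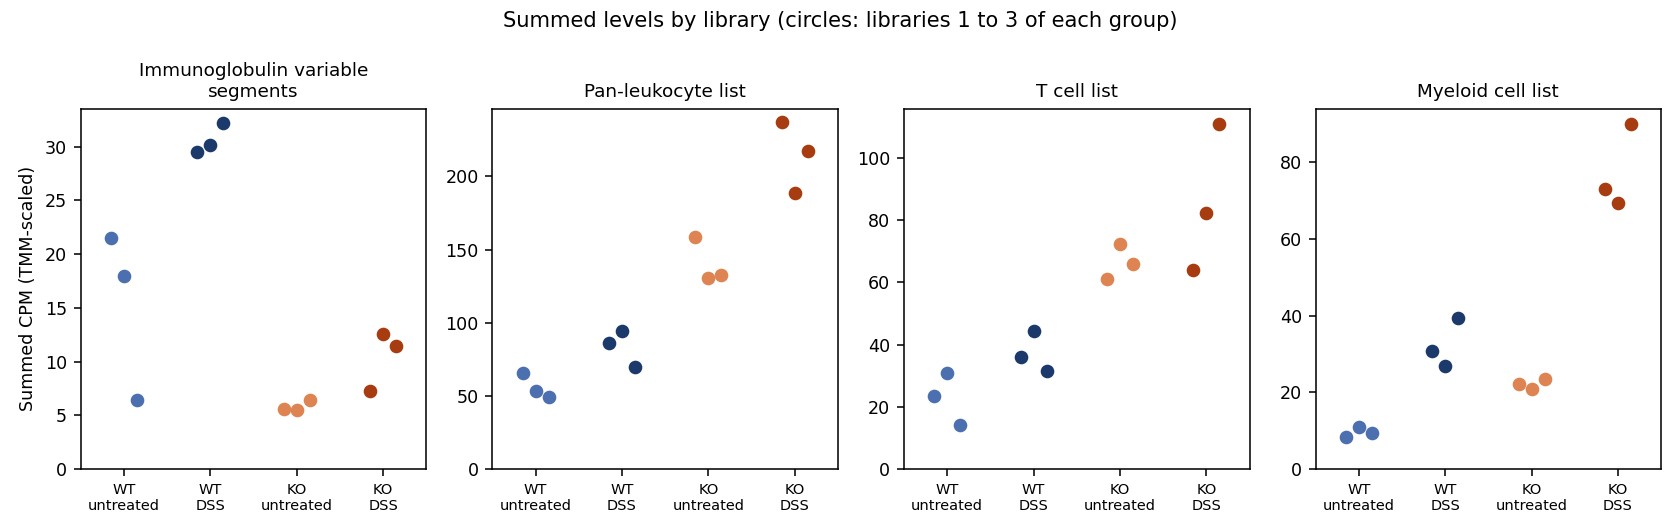
Summed CPM (vertical axes, each panel on its own scale) of the immunoglobulin variable segments and of the pan-leukocyte, T cell and myeloid lists in the 12 libraries, with circles for libraries 1 to 3 of each group. Variable segments are below WT in the KO libraries of the same treatment, whereas pan-leukocyte sums are above 130 CPM in every KO library and below 95 CPM in every WT library.

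The genes whose pattern was most like the mean log2 CPM of Igha, Igkc, Jchain and Mzb1 over the 12 libraries were sought among 12303 tested genes. They were Pde9a (Pearson r = 0.96), Fut2 (0.95), Cd38 (0.95), Pla2g2a (0.94) and Lyn (0.94). These values describe libraries that share groups, depth and scaling. Over the 4 groups Pde9a was at 157 to 238, Fut2 at 263 to 443 and Cd38 at 720 to 1109 mean CPM. Igha was at 6.04 to 45.4 mean CPM, and Lyn at 43.6 to 73.8. The cells that the reads of these genes came from were not determined. Pla2g2a, a secreted phospholipase, was at 9.55 ± 5.07 CPM in untreated WT, 29.2 ± 3.59 in WT given DSS, 2.86 ± 0.480 in untreated KO and 6.42 ± 1.16 in KO given DSS (SD, n = 3 each), with untreated WT library 3 again the low one. For the mean of Cd79a, Cd79b and Ms4a1 the nearest was Klhl26 (r = 0.84), but with so few reads per library this likeness is no finding.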

How the data were processed

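RNA was measured in 12 samples of colonic epithelial cells, 1 library each, and the titles gave the groups and replicate numbers. The submitters' processing notes name STAR 2.5.2b and featureCounts 1.5.0 and the builds GRCm38 and mm10, with no role or order. The annotation release and the strand setting are not given in the sources used here. The values, as deposited by the authors, are raw gene counts in whole reads, not normalized, and every entry is an Ensembl gene. Per the labels' protocols, libraries were made by SMART-seq2 and Nextera XT, which use no molecular identifiers and do not mark strand, so PCR copies and antisense reads are not told apart. Per the labels the 3 samples of a group are biological replicates.

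Symbols came from GENCODE M21 by Ensembl ID without version, which matched 46005 of 46517 IDs, 27555 of them also by version. The versions of Ighm and Igha differed. Sequences and coordinates are of its GRCm38 transcripts. The 8 members and the gene lists were chosen with earlier results of these data known.

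In R 4.3.3 with edgeR 4.0.16, filterByExpr kept 12522 genes (99.8% of counts), scaling was by TMM, the model had a mean for each group and used all 12 libraries, and 6 contrasts were tested by the two-sided quasi-likelihood F test with Benjamini-Hochberg adjustment over all tested genes. A gene passed at an adjusted p under 0.05. The SE of a log2 difference was worked back from the test, as its size divided by the square root of F. Its 95% interval was built from that SE with the t distribution. The comparisons share groups and are not independent. Pairs of replicates differed by 6.51 to 27.0 chi-square per degree of freedom, above sampling noise, so each library counted as 1. The common biological coefficient of variation was 0.227. Log2 CPM for pattern genes used a prior count of 2. Isotype shares carry 95% Wilson intervals.

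Genes named are the members, Nfkb2, set defining genes of each list, up to 6 genes per list that passed in a genotype comparison with the largest change, and the 5 most similar in pattern. Of the genes this rule names, 1 is not reported here. Ighg1, Ighg2b, Ighg2c, Ighv1-64 and the counts of single antibody classes were described after their values were seen. Same-numbered samples deviated together between untreated and DSS-treated KO mice (r = 0.20, 0.11 and 0.13), where the block with DSS changed no member's call. Between the WT groups r was 0.01, 0.12 and 0.13, and between WT and KO groups every r was negative. Alternatives were DESeq2 1.42.0, other scalings and filters, fits on 2 groups, a replicate block and leaving out each library.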

Additional observations from a re-analysis of the deposited data

Results flagged for a closer look

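Ccl20, an epithelial chemokine on the list of follicle-associated genes, was the 1 gene, among the members and the other genes named here, for which the effect of DSS differed between genotypes by the test of that difference. Its interaction was -2.56 on the log2 scale (edgeR adjusted p = 0.00130), from a rise of 2.26 with DSS in WT (edgeR adjusted p = 0.000126) and no call in KO, where its mean was 23.3 CPM untreated and 19.0 CPM with DSS.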

How the results depend on the processing

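Of 472 alternative values for the 4 tested members, 422 kept their direction and their side of the threshold, 30 lost a call, 19 gained one and 1 reversed. The reversal was the change of Igha with DSS in KO, which was -0.21 without DSS-treated KO library 3, and no call in either case. Leaving out 1 library at a time gave -0.21 to 0.80 for it. Members that passed in the untreated genotype comparison (1 by the main analysis) numbered 2 with DESeq2 size factors, 2 with immunoglobulin genes left out of the totals, 3 without the filter, 3 with DESeq2 and 0 in a fit on those 2 groups. Leaving out 1 library gave 0 to 3. For the comparison with DSS (1) they numbered 3 without the filter, 2 with DESeq2, 2 in the fit on those groups and 0 to 1 with 1 library left out. Averaged over treatments (4), the replicate block gave 2 and leaving out a library 2 to 4. For DSS in WT (0) there were 2 without the filter and 0 to 1 with a library left out, and for DSS in KO (0) 0 to 1. The interaction gave 0 in every alternative run. The cause of these changes was not tested. The block changed no other count of members.

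Over all genes, the untreated comparison gave 436 calls against 703 without the filter, 161 in the fit on 2 groups, 790 with DESeq2 and 213 to 738 with a library left out. The comparison with DSS gave 390 against 642, 662 with DESeq2 and 160 to 572. The average gave 745 against 1132 with DESeq2 and 488 to 1010.0. DSS in WT gave 789 against 453 in the fit on 2 groups and 503 to 972. DSS in KO gave 491 against 776 without the filter, 800.0 with DESeq2 and 237 to 713, and the interaction 213 against 356, 368 and 154 to 356. Of 18 correlations of deviations between same-numbered samples, 5 were over 0.1. All correlations between the KO groups were among them, as were those of numbers 2 and 3 between the WT groups. Cd79a, Cd79b, Ms4a1 and Mzb1 were tested only without the filter, over 23136 genes, where none passed. At 3 counts or fewer in many libraries, depth limits what can be said of them.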
